A study of Mus musculus with 9 samples.

Results

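The proteasome subunit genes are the 49 genes of the deposited count table whose symbol begins with Psma to Psmg followed by a digit, after leaving out Psmc3ip, which encodes a protein that interacts with a subunit, and 4 symbols marked as pseudogenes, out of 54325 gene symbols in all. They were measured in N2A cells, an established mouse neuroblastoma line, by RNA immunoprecipitation and sequencing (RIP-seq), which recovers RNA bound by a protein and reads the fragments that the protein protects from RNase I. For 2 h before harvest all cells, including those that gave the controls, were kept in 200 nM okadaic acid, which inhibits protein phosphatases. 3 groups of 3 libraries were made, namely input RNA prepared without immunoprecipitation (IP), RNA recovered with rabbit IgG (rIgG IP) and RNA recovered with antibody to phosphorylated UPF1 (p-UPF1 IP), and the labels do not say whether the 3 libraries of a group came from separate cultures, so the p-values measure the spread between libraries. Per the paper, input RNA was also cleaved with RNase I and selected for short fragments. Setting the p-UPF1 IP against this input asks which RNAs p-UPF1 bound more or less than their share of input fragments would give. The comparison with the rIgG IP asks what the antibody recovered beyond the control IgG.

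The 26S proteasome is the protease that degrades proteins tagged with ubiquitin. Its barrel-shaped 20S core is built of outer rings of α subunits (Psma genes) and inner rings of β subunits (Psmb genes), some of which hold the active sites, and its 19S cap is built of a base, with a ring of ATPases (Psmc genes) that unfold the substrate, and a lid (Psmd genes) that takes off the ubiquitin. Psme genes encode other activators of the core, Psmf1 an inhibitor, and Psmg genes chaperones that assemble the core. UPF1 is the RNA helicase at the centre of nonsense-mediated mRNA decay (NMD), which becomes phosphorylated on RNAs undergoing NMD, and okadaic acid slows the removal of that phosphate.

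The input libraries held 25184464 to 29857955 counts each, those of the p-UPF1 IP 5312526 to 6246110, and those of the rIgG IP 79010 to 474491. A count of 0 still allows a level of up to 3 counts, which equal 0.1005 to 0.119 counts per 1000000 (CPM) in input, 0.480 to 0.565 CPM in the p-UPF1 IP and 6.32 to 38.0 CPM in the rIgG IP, and these limits and the intervals below cover counting error only. Of 14 neuronal and neuroblastoma markers, 10 had at least 10 counts in every input library, while Nefl had none, and the 3 immune markers summed to at most 0.159 CPM in any library. The 3 glial markers summed to between 1.37 and 2.04 CPM in input and to between 9.93 and 13.1 CPM in the p-UPF1 IP, mostly from Mbp, and their part in the results was not tested.

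Proteasome subunit mRNAs made up a smaller share of the p-UPF1 IP than of input. Scaled to library totals, they summed to 664, 652 and 699 CPM in the input libraries (17276, 16412 and 20859 counts), to 348, 373 and 355 CPM for the p-UPF1 IP (1851, 2253 and 2220 counts) and to 512, 526 and 595 CPM for the rIgG IP (243, 108 and 47 counts). The 3 groups did not overlap in this share, and the rIgG IP lay between the others. The 10 most-counted transcripts held 80.5 to 81.3% of the counts in input. They held 76.9 to 77.3% in the rIgG IP and 72.5 to 75.1% in the p-UPF1 IP. Library totals, here and in the alternatives below, therefore rest largely on these transcripts. The rIgG IP values rest on so few counts that single genes were often unseen there, with 41, 33 and 20 of the 49 genes detected, against 44 to 46 in the p-UPF1 IP and 47 or 48 in input.

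Of the 49 genes, 46 had at least 10 counts over the 6 input and p-UPF1 IP libraries and were tested with edgeR's quasi-likelihood test, with Benjamini-Hochberg adjustment over all 16919 genes tested. At an adjusted p under 0.05, 38 of the 46 were lower in the p-UPF1 IP than in input and 4 were higher, against a background of 35.7% of all genes tested that were lower and 26.3% that were higher. Among the 12792 protein-coding genes tested the lower share was 36.3%, and among the 6133 genes with at least 500 summed counts it was 44.7%, beside 28 of the 36 members with that many counts. Past a log2 fold change of 1, 29 members were lower and 1 was higher, against 26.5% and 17.3% of all genes. The members' median log2 fold change was −1.37, that of all genes tested −0.42, and in 41 of the 46 members the 3 libraries of one group lay wholly above those of the other, as they did in 70.1% of all genes tested. When library totals replaced the TMM scaling, the median of all genes shifted from −0.42 to −0.01, the shares of all genes called became 25.8% lower and 33.7% higher, and the members stood at 32 lower and 5 higher.

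**Figure D1:**
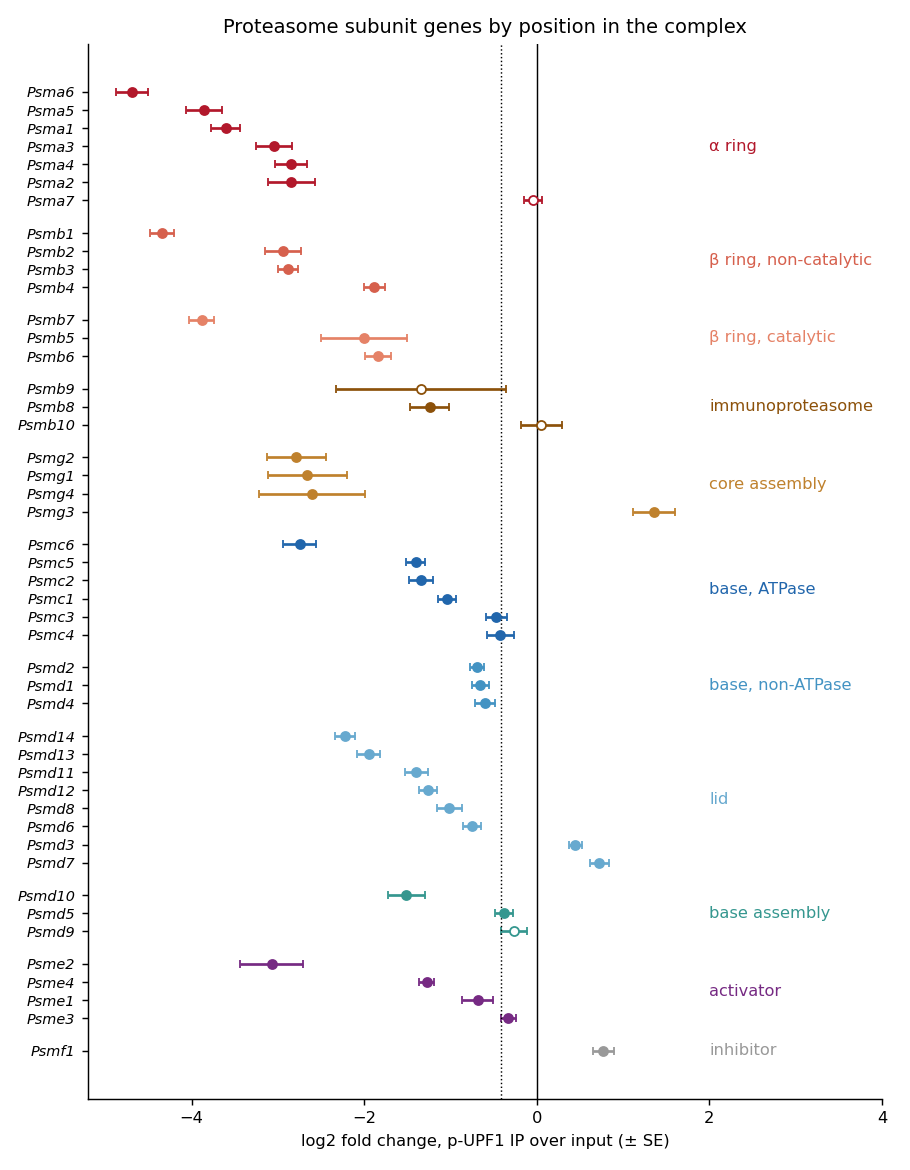
Log2 fold change of the 46 tested proteasome subunit genes in the p-UPF1 IP over input (points, with bars of 1 SE from the edgeR fit), grouped by place in the complex and with filled points for adjusted p under 0.05. The dotted line is the median of all genes tested (−0.42), and the rings of the 20S core lie to its left except for Psma7, while Psmd3, Psmd7, Psmf1 and Psmg3 lie right of 0.

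The 20S core had a lower median than the 19S cap. Of the 14 standard core subunits (Psma1 to Psma7 and Psmb1 to Psmb7), 13 were lower in the p-UPF1 IP, all of them past a log2 fold change of −1, with a median of −2.92. Of the 17 subunits of the 19S cap, 15 were lower and 2 higher, 9 of them lower past −1, with a median of −1.02. With library totals, 13 core genes were lower and 1 was higher, and 12 cap genes were lower and 2 higher, Psmc3, Psmc4 and Psmd4 no longer passing the test.

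Psma6, an α ring subunit, was the most depleted member and the most abundant one in input. It stood at 64.1, 63.6 and 74.3 TMM-scaled CPM in the 3 input libraries (1474, 1424 and 1851 counts) and at 1.36, 3.57 and 2.68 CPM after p-UPF1 IP (8, 26 and 19 counts). Every input library was far above every p-UPF1 IP library, and the log2 fold change was −4.69 ± 0.19 (SE, adjusted p = 1.2e-08). The gene lies at chr12:55384222-55418454 on the plus strand of GRCm38.

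Psmb1, a β ring subunit without an active site in the mature core, followed at chr17:15475021-15499751. It stood at 42.7, 41.7 and 48.8 CPM in input and at 2.20, 1.78 and 2.54 CPM in the p-UPF1 IP, a log2 fold change of −4.35 ± 0.14 (adjusted p = 3.1e-09). Psmb7, whose active site cuts after basic residues, stood at 27.05, 26.0 and 28.0 CPM in input and at 1.19, 1.92 and 2.26 CPM in the p-UPF1 IP (log2 fold change −3.88 ± 0.15, adjusted p = 9.3e-09). In both genes the 2 groups were well apart.

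Psma5, another α ring subunit, stood at 16.9, 16.2 and 18.9 CPM in input and at 1.87, 1.10 and 0.705 CPM in the p-UPF1 IP, where it had only 11, 8 and 5 counts. Its log2 fold change was −3.86 ± 0.21 (adjusted p = 9.2e-08). Of the 35-nt windows of its reference transcript, 61.6% also occur in transcripts of other genes, mainly the pseudogenes Gm8394 and Gm12989, so its counts could be split with theirs. Together these look-alikes had 1 count in input and 5 in the p-UPF1 IP, and adding them gave −3.59 ± 0.17. Psma1, Psma2, Psma3 and Psma4, further α ring subunits, had log2 fold changes between −3.61 and −2.85, and Psma1 fell from 18.4, 18.3 and 21.2 CPM in input to 1.02, 1.78 and 1.83 CPM. Psma3 stood at 23.0, 23.7 and 28.9 CPM in input and at 1.53, 3.71 and 3.67 CPM in the p-UPF1 IP (−3.05 ± 0.21), and its look-alike Gm13835 held 43 counts in the p-UPF1 IP beside 62 of Psma3 but none in input. With those counts added, Psma3 remained lower at −2.29 ± 0.15.

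Psma7 was the exception in the α ring and was singled out after its values were seen. It stood at 16, 16.4 and 18.7 CPM in input and at 18.5, 15.0 and 16.4 CPM in the p-UPF1 IP, so that the groups overlapped. Its log2 fold change was −0.05 ± 0.10 (adjusted p = 0.72), and 0.36 (adjusted p = 0.0069) with library totals. Its 3 input libraries had 368, 368 and 466 counts and its 3 p-UPF1 IP libraries 109, 109 and 116 counts, so Psma7 alone gave 334 of the 1002 core counts in the p-UPF1 IP.

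**Figure D2:**
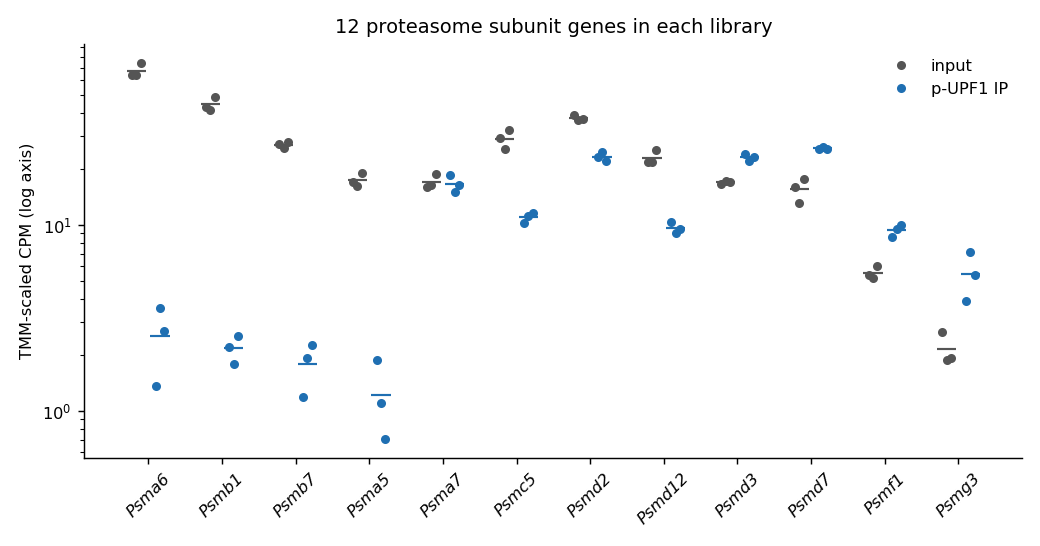
TMM-scaled CPM (log axis) of 12 proteasome subunit genes in the 3 input and the 3 p-UPF1 IP libraries, with 1 point per library and a line at the mean of each group. Psma6, Psmb1, Psmb7 and Psma5 are separated by wide gaps, Psma7 overlaps, and Psmd3, Psmd7, Psmf1 and Psmg3 are higher in the p-UPF1 IP.

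The remaining β ring genes were depleted as well. Psmb2 stood at 10.5, 11.6 and 13.3 CPM in input and at 1.02, 1.37 and 2.11 CPM in the p-UPF1 IP (log2 fold change −2.95 ± 0.21), and Psmb3 and Psmb4 had log2 fold changes of −2.88 ± 0.12 and −1.88 ± 0.12. Psmb6, whose active site cuts after acidic residues, stood at 16.9, 16.03 and 16.6 CPM in input and at 4.75, 5.77 and 3.24 CPM in the p-UPF1 IP (−1.84 ± 0.15, adjusted p = 2.1e-06). Psmb5, which carries the chymotrypsin-like site, was less certain, with 80, 91 and 82 counts in input against 8, 0 and 10 after p-UPF1 IP (3.48, 4.06 and 3.29 CPM against 1.36, 0 and 1.41 CPM). Its log2 fold change of −2.004 ± 0.50 passed in edgeR (adjusted p = 0.0058) and not in DESeq2 (adjusted p = 0.056). The pseudogene Gm3375 shares 58.7% of its windows and held more counts than Psmb5 itself, 567 against 253 in input and 24 against 18 in the p-UPF1 IP, and with these added the change was −2.49 ± 0.14.

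In cells exposed to interferon, the catalytic β subunits are replaced by the immunoproteasome subunits Psmb8, Psmb9 and Psmb10, which take the places of Psmb5, Psmb6 and Psmb7. All 3 were scarce here. Psmb8 stood at 3.22, 3.17 and 3.45 CPM in input and at 1.36, 1.10 and 1.69 CPM in the p-UPF1 IP, a log2 fold change of −1.24 ± 0.22 (adjusted p = 0.00071). Psmb10 stood at 1.83, 2.10 and 2.33 CPM in input and at 1.70, 2.33 and 2.40 CPM in the p-UPF1 IP and did not pass the test (0.05 ± 0.24, adjusted p = 0.86). Psmb9 had 7, 9 and 12 counts in input against 3, 0 and 0 after p-UPF1 IP, a ratio of 0.494 between the pooled shares with a 95% exact interval of 0.0961 to 1.60.

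Psma8, the α subunit of the testis, had 0, 1 and 1 counts in input, Psmb11, the catalytic subunit of the thymus, had 1, 6 and 2, and Psme2b had none in any library. None of the 3 had a count in either IP, and they were not tested. 0 of 17590778 counts in the pooled p-UPF1 IP libraries allows a level of up to 0.171 CPM.

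The balance of core to cap does not depend on how libraries are scaled, because both are counted within one library. Core counts were 7111 of 14394 core and cap counts in the first input library (49.4%, 95% Clopper-Pearson interval 48.6 to 50.2%), 6852 of 13594 in the second (50.4%, 49.6 to 51.2%) and 8855 of 17427 in the third (50.8%, 50.1 to 51.6%). In the p-UPF1 IP core counts were 282 of 1390 (20.3%, 18.2 to 22.5%), 366 of 1669 (21.9%, 20.0 to 24.0%) and 354 of 1660 (21.3%, 19.4 to 23.4%). Core and cap mRNAs were thus about equally counted in input and unequally in the p-UPF1 IP, with 50.2% ± 0.73 (SD, n = 3) against 21.2% ± 0.83 (SD, n = 3). The exact two-sided permutation test gave p = 0.1 for this difference, the smallest that 3 libraries against 3 allow. Without Psma6 and Psmb1 the shares were 39.8% ± 0.69 and 19.6% ± 0.50 (SD, n = 3 each), and this version was chosen after the data were seen.

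In the rIgG IP the core share differed widely between libraries, at 106 of 211 counts (50.2%, 43.3 to 57.2%), 37 of 90 (41.1%, 30.8 to 52.0%) and 8 of 35 (22.9%, 10.4 to 40.1%). The first library, the deepest of the 3, lay with input, while the third, the shallowest, had an interval that takes in all 3 p-UPF1 IP values. The rIgG IP against the p-UPF1 IP gave an exact permutation p = 0.1, and against input p = 0.2.

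**Figure D3:**
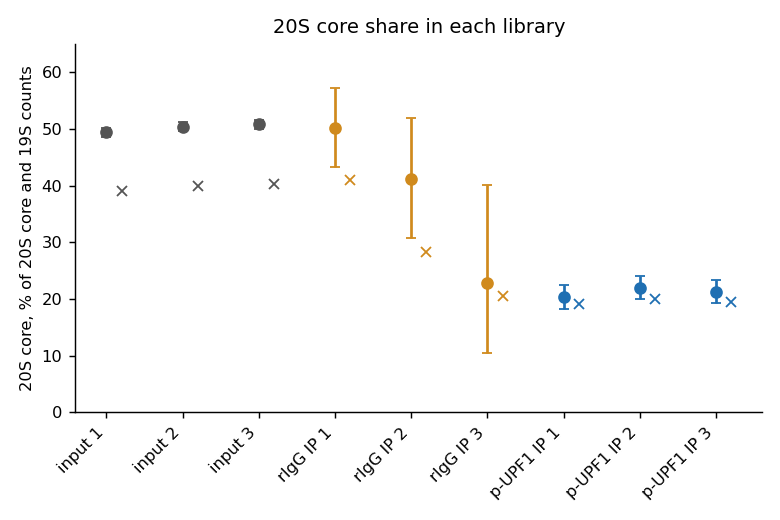
Counts of the 14 standard 20S core genes as a percent of the counts of 20S core and 19S cap genes in each of the 9 libraries (circles, with 95% Clopper-Pearson intervals) and the same without Psma6 and Psmb1 (crosses). Input libraries sit at 49.4 to 50.8% and p-UPF1 IP libraries at 20.3 to 21.9%, while the rIgG IP libraries spread from 22.9 to 50.2% with wide intervals.

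Counts per kilobase of reference transcript show the same change of order as levels. In input the median core gene had 15.1 CPM per kb and the median cap gene 7.94 CPM per kb. In the p-UPF1 IP the median core gene had 1.89 CPM per kb and the median cap gene 5.80 CPM per kb. The highest level in input was that of Psma6 (56.0 CPM per kb), and the highest levels in the p-UPF1 IP were those of Psma7 (20.8 CPM per kb) and Psmd7 (18.8 CPM per kb).

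In the base of the cap, all 6 ATPase genes were lower, their log2 fold changes running from −2.75 (Psmc6) to −0.42 (Psmc4), though Psmc3 and Psmc4 did not pass with library totals. Psmc5, the ATPase with the most counts, stood at 29.4, 25.6 and 32.3 CPM in input and at 10.2, 11.1 and 11.6 CPM in the p-UPF1 IP (−1.41 ± 0.11, adjusted p = 1.9e-06). The 3 base subunits without ATPase activity were lower by small amounts. Psmd2, a large scaffold of the base, stood at 39.0, 36.7 and 37.2 CPM in input and at 23.1, 24.6 and 22.1 CPM in the p-UPF1 IP (−0.69 ± 0.08, adjusted p = 2e-05). Psmd1 and Psmd4, a receptor for ubiquitin, had log2 fold changes of −0.65 ± 0.10 and −0.60 ± 0.11. Among the chaperones that assemble the base, Psmd10 was lower (−1.51 ± 0.21), Psmd9 did not pass (−0.27 ± 0.15) and Psmd5, at 9.87, 9.33 and 9.36 CPM in input and 7.12, 7.69 and 7.05 CPM in the p-UPF1 IP, was lower (−0.38 ± 0.10, adjusted p = 0.0082) and at 0.02 with library totals.

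The lid held both directions. Psmd14, the enzyme that cuts ubiquitin chains off the substrate, was the most depleted lid gene, from 20.7, 20.8 and 24.1 CPM in input to 4.75, 5.08 and 4.23 CPM in the p-UPF1 IP (−2.22 ± 0.12, adjusted p = 1e-07). Psmd7, which pairs with Psmd14 in the lid, was higher, from 16.1, 13.1 and 17.6 CPM in input to 25.6, 26.1 and 25.7 CPM (0.72 ± 0.11, adjusted p = 0.00024). Every p-UPF1 IP library was above every input library for Psmd7 and below every one for Psmd14.

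Psmd3, a scaffold subunit of the lid, was the other that rose, from 16.7, 17.3 and 17.1 CPM in input to 24.1, 22.1 and 23.3 CPM (0.44 ± 0.08, adjusted p = 0.00053). Psmd12, the lid gene with the most counts, stood at 21.9, 21.8 and 25.3 CPM in input and at 10.3, 9.06 and 9.45 CPM in the p-UPF1 IP (−1.26 ± 0.10, adjusted p = 2.2e-06). Psmd6, Psmd8, Psmd11 and Psmd13 were also lower, with log2 fold changes between −1.95 and −0.75. Psmd7 lies at chr8:107580381-107588464 on the minus strand and Psmd3 at chr11:98682554-98695979 on the plus strand.

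The chaperones of the 20S core also held both directions. Psmg3, which works as a pair with Psmg4 when the α ring forms, had the highest log2 fold change of all members. It stood at 2.65, 1.88 and 1.93 CPM in input (61, 42 and 48 counts) and at 3.90, 7.14 and 5.36 CPM in the p-UPF1 IP (23, 52 and 38 counts), a change of 1.36 ± 0.24 (adjusted p = 0.00067). The groups did not overlap, although the p-UPF1 IP libraries differed among themselves by more than for most members. Psmg4, with 31, 47 and 30 counts in input, had 2, 3 and 0 in the p-UPF1 IP (−2.61 ± 0.61, adjusted p = 0.0039). Psmg1 and Psmg2, the other pair, were both lower, Psmg1 from 3.48, 3.89 and 5.02 CPM in input to 1.53, 0.412 and 0.141 CPM in the p-UPF1 IP (−2.66 ± 0.46, adjusted p = 0.00054). Psmg3 lies at chr5:139823592-139826885 on the minus strand, and the gene Gm26938, which shares 24.0% of its windows, had no count in input or the p-UPF1 IP.

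Psmf1 encodes PI31, a protein that binds the ends of the 20S core and inhibits it in the test tube, and was the fourth member that rose. It stood at 5.35, 5.18 and 5.98 CPM in input and at 8.65, 9.47 and 10.0 CPM in the p-UPF1 IP, a log2 fold change of 0.77 ± 0.12 (adjusted p = 0.00025). Of the activators, all 4 that could be tested were lower. Psme4, the large activator also called PA200, stood at 47.3, 47.9 and 53.2 CPM in input and at 19.3, 19.9 and 21.99 CPM in the p-UPF1 IP (−1.27 ± 0.09, adjusted p = 5.4e-07). Psme1 and Psme2 form one ring together, yet Psme2 had a log2 fold change of −3.07 ± 0.36, from 4.61, 5.67 and 6.14 CPM in input to 1.02, 0.137 and 0.846 CPM, and Psme1 of −0.69 ± 0.18. Of the windows of Psme2, 64.8% also occur in Psme2b, which had no count in any library. Psme3, the activator found in the nucleus, had −0.33 ± 0.08, and neither Psme1 nor Psme3 passed with library totals.

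The rIgG IP served as the control for what beads and IgG hold. Against it, 44 members could be tested, 8 were lower in the p-UPF1 IP and 3 were higher, beside 5.59% of all 12033 genes tested that were lower and 17.9% that were higher. The members' median log2 fold change was −0.67 and that of all genes 0.89, and with genes unseen in the rIgG IP set at their bound or left out the members' median was also −0.67. The median of all genes was not adjusted in this way, and genes could pass the filter on p-UPF1 IP counts alone. In DESeq2 the medians were −0.93 for the members and 0.25 for all genes. At a summed count of at least 500 the median of all genes was 0.36, with 1 member tested. The comparison with the rIgG IP shares its p-UPF1 IP libraries with the one against input.

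7 of the 8 lower members were 20S core genes. Psma6 had 21, 10 and 1 counts in the rIgG IP, and its log2 fold change was −3.70 ± 0.46 (adjusted p = 1.3e-06). Psmb1 had 12, 6 and 0 counts in the rIgG IP (−3.13 ± 0.54, adjusted p = 0.00012), and Psmd14, the lid gene among the 8, had 11, 5 and 4 (−2.22 ± 0.41, adjusted p = 0.00024). These 3 passed under all 13 alternatives in which they could be tested. Psma3, Psma5, Psmb2, Psmb3 and Psmb6 had log2 fold changes between −3.10 and −1.51 and did not pass without the first rIgG IP library, where 3 members were lower. Psmb3 was also lost with the replicate number as a block, and Psmb6 with that block, without the second or the third rIgG IP library and without the third p-UPF1 IP library, so that Psmb6 passed in 8 of 13 alternatives.

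The 3 members that were higher than in the rIgG IP were Psmd7, Psmf1 and Psmg3, whose log2 fold changes over input, from the same p-UPF1 IP libraries, were 0.72, 0.77 and 1.36. Psmd7 had 6, 2 and 1 counts in the rIgG IP and a log2 fold change of 1.39 ± 0.41 (adjusted p = 0.014). Psmf1 had 0, 1 and 0 counts there, and its pooled share in the p-UPF1 IP was 8.24 times that in the rIgG IP with a 95% exact interval of 1.46 to 327. Psmg3 had none in the rIgG IP and 23, 52 and 38 in the p-UPF1 IP, so that it was at least 1.62-fold higher when the pooled rIgG IP is taken at 3 counts. All 3 calls were lost in DESeq2 (0 higher and 13 lower) and with the replicate number as a block (0 higher and 6 lower). Psmd7 was also lost with RLE factors, at a summed count of at least 500 and without the second rIgG IP library. Psmf1 was also lost without the first or the third rIgG IP library, and Psmg3 with RLE factors and without any 1 of the 3 rIgG IP libraries.

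Between the rIgG IP and input, none of the 46 members tested was called higher or lower by edgeR or DESeq2, beside 0.584% and 0.313% of all 16280 genes, while 11 had an unadjusted p under 0.05, as did 12.4% of all genes. The members' median log2 fold change was −0.52 and that of all genes −0.84, and without the 3 members unseen in the rIgG IP the median was −0.51. Psma6, for example, had −0.71 ± 0.31 (adjusted p = 0.38), and Psmb7, with 3, 1 and 2 counts, had −1.78 ± 0.41 (adjusted p = 0.083). With 47 to 243 member counts in a library, differences of this size were not detectable for most genes.

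What the depleted and the enriched members share was looked for in their reference transcripts, from GENCODE M21 on GRCm38. Across the 46 members, the log2 fold change in the p-UPF1 IP over input went with the GC content of the 3′ UTR, with Pearson's r = 0.61 and Spearman's rho = 0.65, and over all members less with the GC content of the whole transcript (r = 0.45, rho = 0.45) and of the coding region (r = 0.41, rho = 0.39). It had little relation to the length of the 3′ UTR (r = 0.03, rho = 0.08). With the length of the coding region it gave r = 0.20 and rho = 0.35, and with that of the whole transcript r = 0.19 and rho = 0.30. Across 12437 protein-coding genes the values for 3′ UTR GC were r = 0.38 and rho = 0.45. These are descriptions across genes of the same 6 libraries, which share base composition, depth and any bias of ligation or PCR, and genes are not independent replicates.

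The 4 members that rose had 3′ UTRs of 44.3% (Psmd7), 57.0% (Psmd3), 53.7% (Psmf1) and 54.1% GC (Psmg3), beside a median of 43.2% over the members. These are values of reference transcripts, which need not be the ones that the p-UPF1 IP counted. That of Psmf1, Psmf1-202, had 235 counts in pooled input and none in the p-UPF1 IP. Within the 14 core genes, whose 3′ UTRs ranged from 33.7% to 49.5% GC with a median of 39.6%, r was 0.56 and rho 0.35, and Psma7 had the highest GC of these at 49.5%. Within the 17 cap genes, with a median of 46.0%, r was 0.40 and rho 0.30. In both sets the GC content of the coding region had higher rank correlations than that of the 3′ UTR, with r = 0.51 and rho = 0.63 in the core and r = 0.62 and rho = 0.58 in the cap. The whole transcript gave r = 0.47 and rho = 0.51 in the core and r = 0.65 and rho = 0.58 in the cap. Psma6, the most depleted, had 44.4%, close to the 44.3% of Psmd7, so that members with the same value could differ widely. The median coding length was 741 nt in the core and 1254 nt in the cap.

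**Figure D4:**
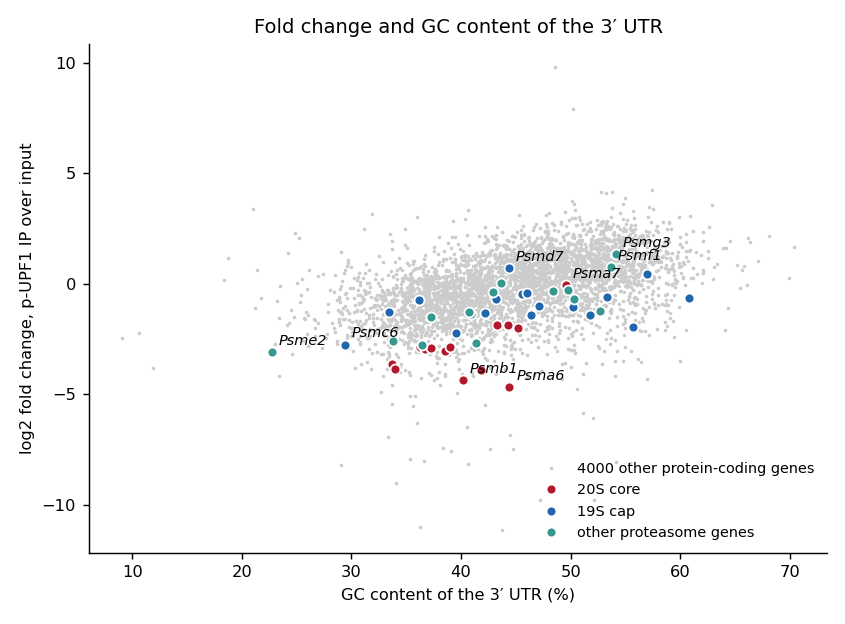
GC content of the 3′ UTR (%) against log2 fold change in the p-UPF1 IP over input for 14 genes of the 20S core, 17 of the 19S cap and the other proteasome genes tested, over 4000 other protein-coding genes drawn at random among those with at least 100 counts (grey). Members with GC-rich 3′ UTRs, such as Psmg3 and Psmf1, lie higher than those with AT-rich ones, such as Psme2 and Psmc6, and Psma6 and Psmb1 lie below the bulk of genes at their GC content. GC content is that of each gene's reference transcript, which for Psmf1 had no count in the p-UPF1 IP.

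The counts had been estimated per transcript, and the 49 genes have 274 transcripts in the table, of which 110 are annotated as protein coding, 97 as retained-intron and 27 as NMD targets. Of 142 transcripts tested, 39 from 30 genes were depleted in the p-UPF1 IP (log2 fold change under −1 and adjusted p under 0.05), beside 16.2% of all 42616 transcripts tested, and 7 from 7 genes were enriched, beside 8.55%. 31 of the 39 depleted transcripts and 1 of the 7 enriched ones were annotated as protein coding. Protein-coding transcripts held 86.4 to 89.3% of the members' counts in input, and the part of this in the split was not tested. Of the enriched ones, 3 were retained-intron transcripts, of Psma7, Psmb4 and Psmc4, and 2 were NMD targets, of Psmd2 and Psmc5. Transcripts varied far more between libraries than genes, with a biological coefficient of variation of 96.7% against 12.4%. With the replicate number as a block, 1 was enriched and 19 were depleted, without the second input library 11 were enriched, and without the first p-UPF1 IP library 4 were.

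Counts on annotated NMD targets were 3.00, 4.22 and 3.33% of the members' counts in the input libraries, 4.12, 0.926 and 8.51% in the rIgG IP libraries and 14.5, 13.1 and 13.3% in those of the p-UPF1 IP. The latter were thus above all others in this share. Over all protein-coding genes, leaving out the 10 most-counted transcripts, the share was 4.12 to 4.52% in input and 5.20 to 5.27% in the p-UPF1 IP. Without Psmd2, Psmc5 and Psmf1, a version chosen after the values were seen, the order turned, with 3.18 to 4.52% in input and 1.46 to 2.18% in the p-UPF1 IP. Retained-intron transcripts held 5.77 to 6.84% of the members' counts in input and 10.0 to 12.0% in the p-UPF1 IP, and without those 3 genes 6.39 to 7.51% and 11.6 to 13.7%. The rIgG IP libraries, at 8.23, 9.26 and 14.9%, spanned the p-UPF1 IP values. Over all protein-coding genes, without the 10 most-counted transcripts, the retained-intron share was 6.25 to 6.48% in input and 8.19 to 8.56% in the p-UPF1 IP.

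**Figure D5:**
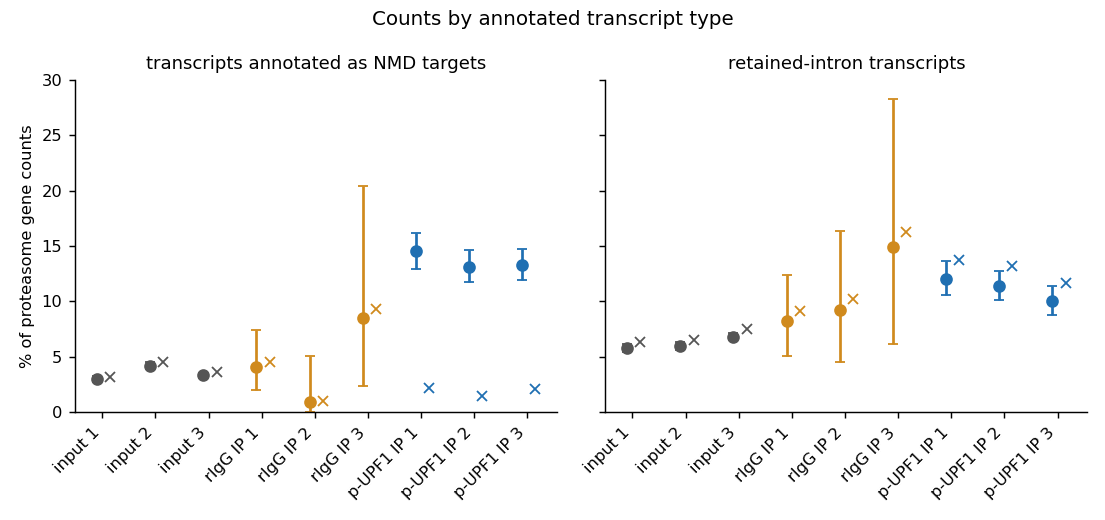
Percent of the proteasome gene counts of each library that fell on transcripts annotated as NMD targets (left) and as retained-intron (right), with 95% Clopper-Pearson intervals (circles), and the same without Psmd2, Psmc5 and Psmf1 (crosses). In the p-UPF1 IP the NMD share drops from 13.1 to 14.5% to under 2.19% once these 3 genes are left out, while the retained-intron share does not.

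The transcripts behind that share are shown by their last 27 coding bases and stop codon, in capitals, beside those of the reference transcript, because a stop codon well before the last exon junction is the usual mark of an NMD target.
Psmd2-201: cttcggaagaaccccaactatgatcttTGA
Psmd2-206: tgtcccggggtaagtgggaggagaatgTGA
Psmc5-201: aacatgtccatcaagaagctatggaagTGA
Psmc5-202: gggcttagggctttcttctcttatcccTAG
Psmf1-202: ccaccgggctacgatgacatgtacctgTGA
Psmf1-206: gccttgggcacgggcgaccaggacctaTAA
The sequences are from GENCODE M21 transcripts on GRCm38. In Psmd2-206 the stop follows 180 coding nt and leaves 2805 nt after it, with the last exon junction 2453 nt downstream, where Psmd2-201 has 2724 coding nt and 169 nt after the stop. In Psmc5-202 the stop follows 1044 coding nt and leaves 310 nt, with the last junction 198 nt downstream, against 1218 and 58 nt in Psmc5-201. In Psmf1-206 it follows 135 coding nt and leaves 3014 nt, with the last junction 390 nt downstream, against 813 and 369 nt in Psmf1-202.

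Psmd2-206 went uncounted in every input and rIgG IP library, while the p-UPF1 IP gave it 126, 135 and 120 counts out of 136, 179 and 157 for all Psmd2 transcripts. With input taken at 3 counts and the estimated split between transcripts taken as given, the p-UPF1 IP was at least 585-fold higher (adjusted p = 0.00056). An error in that split is not covered by this bound. Psmd2-201 had 897, 822 and 927 counts in input against 10, 44 and 32 after p-UPF1 IP. The assignment rests on little sequence, because only 33 of the 2967 windows of Psmd2-206, all of them across the junction of its exons 1 and 2, occur in no other Psmd2 transcript. The 30 bases around that junction, with the last base of exon 1 and the first base of exon 2 in capitals, are the ones that tell it from Psmd2-201, and the next line gives the same for Psmf1-206.
Psmd2-206 junction: aaagagcaggagctGAcattcacactcttc
Psmf1-206 junction: ggcacgggcgaccaGGacctataagaacag
The Psmd2 junction joins base 20651851 to base 20652152 of chromosome 16 on the plus strand, and that of Psmf1-206, which lies in 31 own windows of 3272, joins base 151741011 to base 151729676 of chromosome 2 on the minus strand.

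Psmc5-202 had 0, 18 and 8 counts in input against 60, 78 and 74 after p-UPF1 IP (log2 fold change 4.48 ± 1.18, adjusted p = 0.042), and 109 of its windows are its own. Psmc5-201, the coding transcript, had 676, 555 and 796 counts in input against 0, 3 and 8 after p-UPF1 IP. Psmf1-206 had 23, 0 and 0 counts in input against 48, 55 and 60 after p-UPF1 IP and did not pass the test (4.26 ± 1.70, adjusted p = 0.12). Psmf1-202, the coding transcript, had 235 counts in pooled input and none in the p-UPF1 IP. In the estimated counts of all 3 genes the coding and the NMD-annotated transcript thus changed places between input and the p-UPF1 IP. This exchange rests on how fragments shared between transcripts were split. The whole gene was lower in the p-UPF1 IP for Psmd2 and Psmc5 and higher for Psmf1.

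Other NMD-annotated transcripts went the opposite way. Psma3-201 had 241, 238 and 391 counts in input and none in either IP, at least 62.9-fold lower in the p-UPF1 IP, and Psmd11-209 had 68, 89 and 72 in input and none in the p-UPF1 IP, at least 16.6-fold lower. Psma3-206 had 22, 67 and 48 counts in input and none in the p-UPF1 IP, at least 9.91-fold lower. These 3 were the NMD targets among the depleted transcripts, and their bounds likewise take the estimated split between transcripts as given. Of the retained-intron transcripts that were enriched, Psma7-202 had 8, 12 and 8 counts in input against 32, 32 and 25 after p-UPF1 IP (log2 fold change 3.14 ± 0.39, adjusted p = 0.0034), with 45.2% of its windows its own. Psmb4-204 had none in input against 20, 42 and 11 after p-UPF1 IP.

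Genes around the proteasome were measured with the same test, in which 35.7% of all genes tested were lower and 26.3% higher. With library totals these shares were 25.8% and 33.7%. Of 9 genes for proteasome-associated proteins, 8 were lower in the p-UPF1 IP than in input and none higher, or 7 and 1 with library totals, with a median log2 fold change of −2.13. The lowest was Pomp, the maturation chaperone of the 20S core, from 12.0, 10.8 and 15.0 CPM in input to 1.53, 1.24 and 0.987 CPM (−3.34 ± 0.22, adjusted p = 4.9e-07). The highest was Adrm1, a ubiquitin receptor of the base, whose input libraries differed widely (3.17, 1.92 and 9.72 CPM against 9.33, 9.34 and 11.4 CPM in the p-UPF1 IP) and which did not pass (1.01 ± 0.49, adjusted p = 0.095). All 6 genes of ubiquitin and its activating enzymes were lower (median −1.50), 5 of them with library totals, and of 11 genes for shuttle factors and the segregase that bring substrates to the proteasome, 6 were lower and 4 higher, among them Zfand2a at 1.86 ± 0.09 (adjusted p = 4.8e-08).

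Of 6 regulators of proteasome gene expression, 2 were higher and 2 lower, near the shares of all genes tested (26.3% and 35.7%). With library totals 3 were higher and 2 lower, beside 33.7% and 25.8% of all genes. Ddi2, the protease that releases the transcription factor Nfe2l1 from the endoplasmic reticulum, rose from 24.5, 23.4 and 22.7 CPM in input to 92.4, 97.3 and 96.8 CPM in the p-UPF1 IP (2.02 ± 0.07, adjusted p = 4.7e-09). Nfe2l1, which switches on proteasome subunit genes when the proteasome is impaired and was named after its values were seen, rose from 55.1, 57.9 and 52.9 CPM to 169, 177 and 177 CPM (1.66 ± 0.07, adjusted p = 1.4e-08). The lowest was Nfe2l3, with 6, 5 and 8 counts in input and none in the p-UPF1 IP, at least 1.37-fold lower.

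3 other complexes were measured beside the proteasome, against the same 35.7% of all genes tested that were lower and 26.3% that were higher. All 8 genes of the chaperonin CCT, which folds actin and tubulin, were lower, with log2 fold changes from −2.38 to −1.28 and a median of −1.96. Of 10 genes of the COP9 signalosome, which resembles the lid in its build, 8 were lower and none was higher (median −1.83), though 2 were higher with library totals, from Cops9 at −2.58 ± 0.20 to Cops7b at 0.22 ± 0.20. Of 14 genes of the translation factor eIF3, likewise related to the lid, 9 were lower and 1 higher (median −1.43), or 9 and 2 with library totals, from Eif3m at −3.67 ± 0.14 to Eif3b at 0.43 ± 0.07. The median of the 14 standard core genes, −2.92, was below each of these, and no test of that difference was made.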

How the data were processed

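RIP-seq of okadaic acid-treated N2A cells gave 9 libraries, 3 each of input, rIgG IP and p-UPF1 IP, grouped by the sample titles. Per the submitters' processing notes, reads were handled with bcl2fastq 2.19.0, STAR 2.7.0f and Salmon 0.13.1 on GRCm38.p6. The authors deposited 1 table of estimated counts for each transcript, given as whole numbers and not scaled for depth, so no rounding was needed. Every column matched 1 library by name. Reads were short fragments left by RNase I, so where transcripts or pseudogenes share sequence their counts rest on how Salmon split them.

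From these, counts were summed per gene symbol. Groups were set against each other in edgeR 4.0.16 under R 4.3.3 (TMM, quasi-likelihood test, the 6 libraries of the groups compared, summed count of at least 10, Benjamini-Hochberg over all genes), and the SE is the fold change divided by the root of F. Transcripts were tested likewise. All 274 member transcripts matched GENCODE M21, whose GTF and sequences gave types, coordinates and windows of 35 nt. The procedure was tested on simulated data. Planted gene changes had log2 fold changes of 2 and 3, up or down. They were recovered at 67% and 83% when p-UPF1 IP was set against input, with 5.66% false calls. With rIgG IP as its control, recovery was 42% and 63% (4.55% false calls). For rIgG IP against input it was 18% and 37% (11.3% false calls). The transcript test recovered 0% and 3%, with 0% false calls, so it missed nearly all changes of that size. Replicate libraries differed by more than sampling noise (3.62 to 15.6 for chi-square over its degrees of freedom), so none was counted as a copy.

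The members and lists were chosen with earlier results of these data known. Values in every library are given for the 4 highest and 4 lowest members by log2 fold change over input with at least 100 counts, the most-counted member of each class, up to 10 members past a log2 fold change of 1, and the immunoproteasome and standard catalytic subunits. Of the other lists, the highest and lowest gene could be named. Psma7, Nfe2l1, Nfe2l2, the other members given with library values and the transcripts were named after their values were seen. Alternatives were RLE factors, library totals, no filter, a summed count of at least 500, DESeq2 1.42.0, a joint fit of all 9 libraries, a block for the replicate number, and leaving out each library. Adding the counts of genes that share at least 10% of a member's windows was chosen after seeing the data. The values of 1 marker gene are not reported here.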

Additional observations from a re-analysis of the deposited data

How the results depend on the processing

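In the p-UPF1 IP over input, 4 members were higher and 36 to 39 lower in every fit that left out 1 library, 4 and 38 with RLE factors, the replicate block, no filter or look-alike counts added, 5 and 32 with library totals, 4 and 37 in DESeq2 and with all 9 libraries, and 3 and 28 of 36 tested at a summed count of at least 500 (44.7% of all genes lower there). The members' median minus that of all genes, −0.96, was −0.058 with no filter, where the 30801 genes tested include many of few counts, −1.10 at a summed count of at least 500, and −1.08 to −0.82 when 1 library was left out.

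Over the rIgG IP, where 3 were higher and 8 lower, 1 was higher with RLE factors, 0 with the replicate block (6 lower), 0 and 13 lower in DESeq2, and 0 and 0 of 1 tested at a summed count of at least 500. Leaving out 1 library gave 1 to 4 higher and 3 to 10 lower. The difference of medians, −1.56, was −1.41 with the replicate block, −1.94 with no filter, −1.18 in DESeq2, −0.044 for the 1 member tested at a summed count of at least 500, and −1.80 to −1.35 when 1 library was left out. In the rIgG IP over input, 2 were lower with no filter, 1 with all 9 libraries and 0 to 1 when 1 library was left out, and the difference of medians, 0.33, turned to −0.46 in DESeq2, was 0.0084 at a summed count of at least 500 and 0.79 with no filter, and ran from 0.19 to 3.15 when 1 library was left out, the last without the first rIgG IP library, so its direction did not hold. Enriched and depleted transcripts, 7 and 39, became 1 and 19 with the replicate block, and enriched ones 4 to 11 when 1 library was left out.

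Of 24 named genes, 317 of 329 alternative values kept direction and side of the threshold. Psmb10 turned to −0.028 with no filter and, when 1 library was left out, ran from −0.021 (first input library) to 0.22, turning also without the third p-UPF1 IP library (−0.0045). Psmd5 turned to 0.024 with library totals. Psma7 turned to 0.36 with library totals and 0.091 at a summed count of at least 500, and ran from −0.082 to 0.056 (second p-UPF1 IP library) when 1 library was left out, with 0.05 without the third input library. Where no construction of the alternative shows it, the cause was not tested. The deviations of same-numbered libraries correlated at −0.031 to 0.055, which shows no pairing by number. Counting noise lowers such correlations, so they cannot settle whether same-numbered libraries came from the same culture. Apart from the changes given here, the replicate block altered no count of members by over 1.5 times. Depth limits the rIgG IP most, with 47 to 243 member counts in a library.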
